A study of Homo sapiens with 2 samples.

Results

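Transcript levels of 9 genes of MHC class I antigen presentation were examined in the human gastric adenocarcinoma line HGC-27: the heavy chain genes HLA-B, HLA-C, HLA-E and HLA-F, the light chain gene B2M, the peptide transporter genes TAP1 and TAP2, the tapasin gene TAPBP and the aminopeptidase gene ERAP1. The genes were taken by name, and all 9 had a row among the 16021 genes of the table. Cells carried an shRNA against DDX5, an RNA helicase gene, or a non-targeting shRNA. Both shRNAs were delivered by lentivirus, with puromycin selection starting at 48 h and collection 1 week later. There was 1 library for each condition. The spread between cultures was therefore not measured, no test was possible, and every difference below is between 2 libraries.

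MHC class I molecules display peptides from inside the cell to CD8 T cells and to NK cells. The proteasome cuts cytosolic proteins into peptides, the TAP1-TAP2 transporter moves them into the endoplasmic reticulum, ERAP1 trims their ends, and tapasin holds an empty heavy chain and beta-2-microglobulin dimer at the transporter until a peptide is bound. Interferons, NF-kappa B and the transactivator NLRC5, which works through the RFX complex, are known to raise transcription of these genes, and many tumours keep them low.

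Values are FPKM, that is, fragment numbers divided by transcript length and by sequencing depth. DDX5 itself stood at 50.78 FPKM in the DDX5 shRNA library, against 170.5 FPKM in the non-targeting library, or 29.8% of that level, so the targeted transcript was lower where the labels place its shRNA. Steps between low FPKM values fitted about 14100000 fragments in each library, with nearly as good fits from 13300000 to 16100000 in the DDX5 shRNA library and from 13400000 to 15400000 in the non-targeting library. Epithelial and gastric markers were low for a line labelled gastric adenocarcinoma. Of 12 such markers 7 were measured, and these summed to 10.75 FPKM in the DDX5 shRNA library and 12.97 FPKM in the non-targeting library. VIM, a mesenchymal filament gene, stood at 1270.59 FPKM in the DDX5 shRNA library and 1583.62 FPKM in the non-targeting library, and FN1 and CDH2, also mesenchymal markers, at 5.99 and 0 FPKM in the DDX5 shRNA library and 4.76 and 0.07 FPKM in the non-targeting library. The keratin gene KRT8 stood at 1.31 FPKM in the DDX5 shRNA library and 5.24 FPKM in the non-targeting library, MUC1 at 7.41 FPKM in the DDX5 shRNA library and 6.12 FPKM in the non-targeting library, while the epithelial genes EPCAM and CDH1 were under 1 FPKM in both libraries. Of 8 leukocyte markers, 5 were measured, and these summed to 2.68 FPKM in the DDX5 shRNA library and 2.78 FPKM in the non-targeting library.

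The upstream sequences of 6 of the genes are shown first, since class I genes are regulated together through short motifs before their start. They comprise the HLA genes with the largest ratios, and B2M, TAP1 and TAP2, which stood lower in the DDX5 shRNA library. Each is the stretch of 250 bases before the RefSeq transcript start (GRCh38.p14), written 5′ to 3′ on the gene's own strand. Capitals mark matches, on either strand, to GGGNNTTNCC (a kappa B form), GAAANNGAAA (a paired interferon regulatory factor form), GAANNGAAAC (the form found in HLA-B and HLA-C), TGACGC (part of a CRE) and CCAAT. The letters were chosen with these sequences in view, and matches can overlap each other.
HLA-B (chr6:31357180-31357429, minus strand): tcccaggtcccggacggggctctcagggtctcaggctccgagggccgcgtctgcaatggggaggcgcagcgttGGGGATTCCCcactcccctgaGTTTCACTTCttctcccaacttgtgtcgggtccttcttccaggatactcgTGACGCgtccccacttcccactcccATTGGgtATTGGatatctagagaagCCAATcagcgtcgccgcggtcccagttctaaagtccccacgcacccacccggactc
HLA-C (chr6:31272093-31272342, minus strand): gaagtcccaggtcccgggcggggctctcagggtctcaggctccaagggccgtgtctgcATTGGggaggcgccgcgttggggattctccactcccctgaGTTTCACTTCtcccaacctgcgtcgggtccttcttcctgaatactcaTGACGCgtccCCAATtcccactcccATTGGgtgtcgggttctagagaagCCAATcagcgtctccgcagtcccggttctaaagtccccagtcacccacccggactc
HLA-F (chr6:29723184-29723433, plus strand): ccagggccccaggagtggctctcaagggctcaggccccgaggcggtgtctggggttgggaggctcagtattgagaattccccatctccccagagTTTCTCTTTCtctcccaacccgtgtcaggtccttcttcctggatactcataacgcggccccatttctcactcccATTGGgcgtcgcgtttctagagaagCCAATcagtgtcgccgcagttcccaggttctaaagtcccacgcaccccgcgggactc
B2M (chr15:44711267-44711516, plus strand): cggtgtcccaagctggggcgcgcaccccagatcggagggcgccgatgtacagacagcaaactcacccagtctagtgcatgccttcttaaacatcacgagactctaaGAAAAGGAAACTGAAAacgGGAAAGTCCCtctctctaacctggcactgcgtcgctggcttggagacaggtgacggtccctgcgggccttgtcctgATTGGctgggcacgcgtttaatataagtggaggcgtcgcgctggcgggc
TAP1 (chr6:32853705-32853954, minus strand): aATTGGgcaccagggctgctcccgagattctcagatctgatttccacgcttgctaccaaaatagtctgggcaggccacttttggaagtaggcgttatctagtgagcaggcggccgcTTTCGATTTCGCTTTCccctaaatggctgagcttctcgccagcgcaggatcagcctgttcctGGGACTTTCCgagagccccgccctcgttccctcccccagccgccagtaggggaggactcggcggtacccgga
TAP2 (chr6:32838740-32838989, minus strand): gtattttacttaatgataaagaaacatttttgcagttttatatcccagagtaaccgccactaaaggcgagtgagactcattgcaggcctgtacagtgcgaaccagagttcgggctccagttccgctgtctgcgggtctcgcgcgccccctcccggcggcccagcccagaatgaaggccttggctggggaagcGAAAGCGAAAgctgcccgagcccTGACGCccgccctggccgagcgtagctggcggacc

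In these windows the 3 HLA genes are close copies. HLA-B and HLA-C were identical at 90.4% of the 250 bases, HLA-B and HLA-F at 82.0%, and HLA-C and HLA-F at 80.4%, whereas HLA-B and B2M reached 52.4%. RefSeq entries were matched for 8 of the 9 genes, all but HLA-E. TAP1 and ERAP1 have 2 entries each, and their counts below use the first, since the second holds none of these motifs. The shares of all windows count every entry, so they are not on the same footing for these genes. Both this choice of entry and the choice of letters favoured matches, and the HLA windows are close copies. The counts below therefore do not measure an excess over the shares of all windows. ERAP1 held neither interferon regulatory factor form. GAAANNGAAA was found in HLA-F, B2M, TAP1, TAP2 and TAPBP, and in 3.02% of all 35116 start windows of the same length. GAANNGAAAC was found in HLA-B and HLA-C, whose windows were in view when its letters were chosen, and in 1.23% of all windows. GGGNNTTNCC was found in 5 of the 8, HLA-B, B2M, TAP1, TAPBP and ERAP1, against 5.07% of all windows. TGACGC was found in HLA-B, HLA-C and TAP2, against 7.67% of all windows. CCAAT was found in 6 of the 8, all but TAP2 and TAPBP, against 32.0% of all windows. HLA-F, with the highest ratio of the 9 genes in the comparison of libraries, and TAP2, with the lowest, both hold GAAANNGAAA. Whether any of these motifs bears on the ratios was not tested. A match describes letters only and does not show that a factor bound there.

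**Figure D1:**
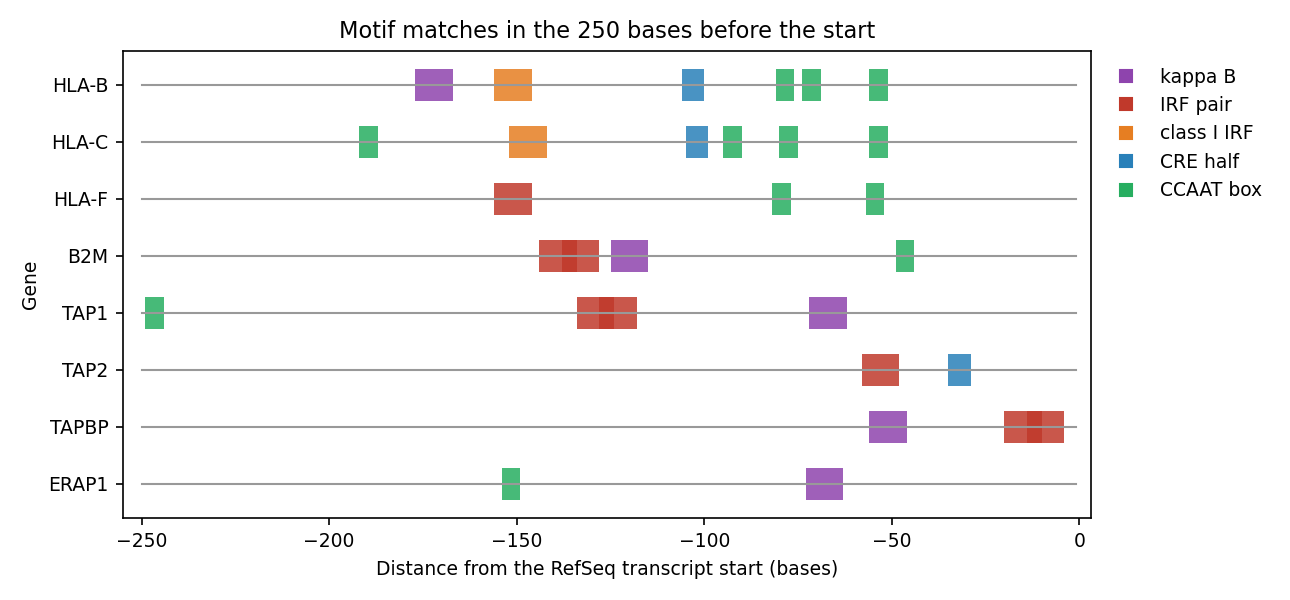
Positions of motif matches in the 250 bases before the RefSeq start of 8 genes; the x axis is distance from the start in bases, each grey line is a gene, and each coloured block is a match on either strand. HLA-B and HLA-C have the GAANNGAAAC form, and HLA-F the GAAANNGAAA form, at about the same distance, with CCAAT boxes nearer the start. HLA-C has a further CCAAT match farther out, from -192 to -188. TAPBP and TAP2 have their interferon regulatory factor matches close to the start.

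The comparison asks whether class I presentation genes differed between cells with the DDX5 shRNA and cells with the non-targeting shRNA. The heavy chain genes HLA-B, HLA-C, HLA-E and HLA-F and the trimming enzyme gene ERAP1 were higher in the DDX5 shRNA library, while B2M, TAP1, TAP2 and TAPBP were lower. The sizes ran from 2.73-fold higher for HLA-F to 1.69-fold lower for TAP2. Ratios below are log2 ratios of FPKM + 1, DDX5 shRNA over non-targeting shRNA, which understate the difference of weakly expressed genes, and a fold given as a value is a ratio of FPKM. Statements that a gene was past 2-fold or 2-fold apart refer to FPKM + 1. The heavy chain genes and the transport and loading genes therefore did not differ in a common direction. The differences of TAP1, B2M and TAPBP were small, however, with log2 ratios of -0.07, -0.17 and -0.22. In bulk RNA, a difference in RNA per cell and one in the share of cells that express a gene cannot be told apart.

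**Figure D2:**
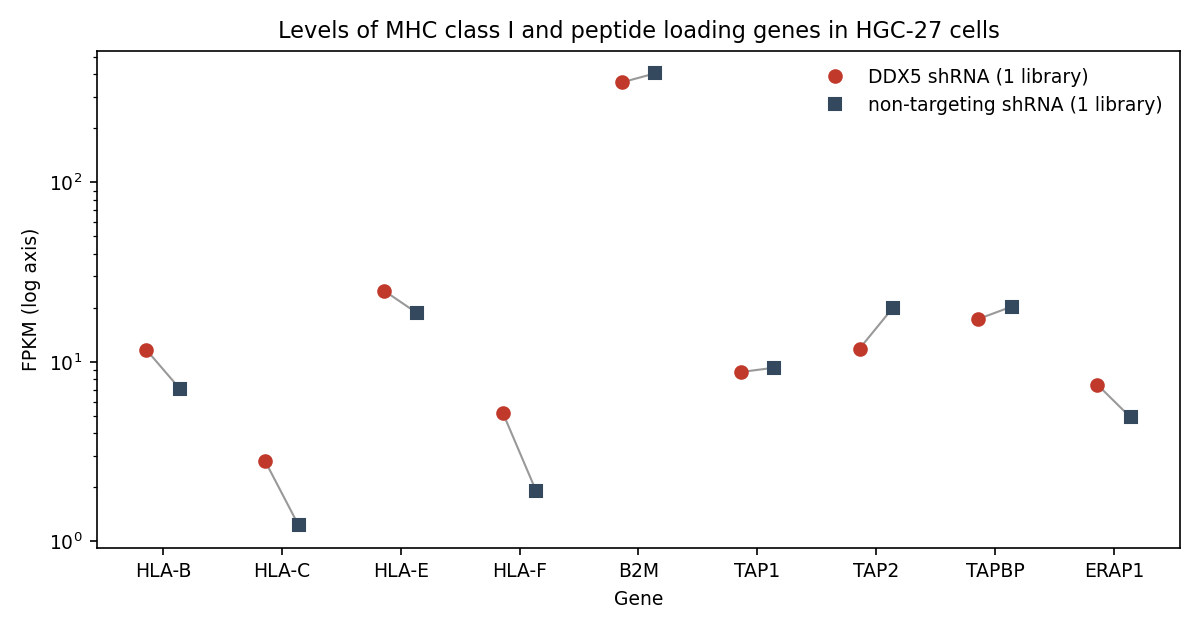
FPKM on a log axis for the 9 genes, with 1 circle for the DDX5 shRNA library and 1 square for the non-targeting library, joined by a line. HLA-B, HLA-C, HLA-E, HLA-F and ERAP1 were higher in the DDX5 shRNA library, and B2M stood far above the other genes at 361.11 FPKM in the DDX5 shRNA library and 405.5 FPKM in the non-targeting library.

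Among the heavy chains, the classical genes HLA-B and HLA-C encode the polymorphic molecules that present peptides to T cells. HLA-B stood at 11.67 FPKM in the DDX5 shRNA library and at 7.1 FPKM in the non-targeting library, 1.64-fold higher, with a log2 ratio of 0.65. HLA-C stood at 2.79 FPKM in the DDX5 shRNA library and at 1.23 FPKM in the non-targeting library, 2.27-fold higher, with a log2 ratio of 0.77. HLA-C was the lowest of the 9 genes in both libraries, and its values correspond to about 57 fragments in the DDX5 shRNA library and 25 in the non-targeting library. Fragment numbers rest on the estimated depth and are approximate.

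HLA-E, whose product shows signal peptides of other class I chains to the NKG2A receptor of NK cells, stood at 24.93 FPKM in the DDX5 shRNA library and at 18.65 FPKM in the non-targeting library. Its ratio was the smallest of the 4 heavy chain genes, at 1.34-fold and 0.40 on the log2 scale. HLA-F, a nonclassical heavy chain that can reach the surface as an open form without peptide, stood at 5.18 FPKM in the DDX5 shRNA library and at 1.9 FPKM in the non-targeting library. Its log2 ratio of 1.09 was the only 1 of the 9 past 2-fold on FPKM + 1, and it rests on about 112 fragments in the DDX5 shRNA library and 41 in the non-targeting library.

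Summed over HLA-B, HLA-C, HLA-E and HLA-F, the level was 44.57 FPKM in the DDX5 shRNA library and 28.88 FPKM in the non-targeting library, 1.54-fold higher, a sum taken because reads of shared sequence can be divided among these 4 in more than 1 way. Within that sum HLA-E made up 55.9% in the DDX5 shRNA library and 64.6% in the non-targeting library. HLA-F made up 11.6% in the DDX5 shRNA library and 6.58% in the non-targeting library. The sum leaves out further class I heavy chain genes, so it is not the total of class I heavy chain RNA.

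Shared sequence bears on how far these values can be told apart. Of 50-base windows along the longest coding transcript (GENCODE v29), 7.95% of those of HLA-C also occur in a coding transcript of another gene, as do 5.47% of those of HLA-E, 2.67% of those of HLA-B and 1.26% of those of HLA-F. Between the 4 genes themselves, 3 windows of HLA-C were shared with HLA-B and 3 with HLA-E, and 2 windows of HLA-F with HLA-E and 1 with HLA-C. Only identical windows in coding transcripts were counted, so near matches and copies in noncoding genes are not in these shares. The windows compare reference alleles and not those of HGC-27. Antisense models also overlap some of the 9 genes. Of the exon bases of the longest transcript, 31.7% in HLA-F lie opposite exons of AL645939.1, 24.0% in HLA-B opposite AL671883.2 and 15.4% in TAP1 opposite PSMB8-AS1. The strand setting of the counting is not given in the sources used here, so reads of the 2 strands there cannot be told apart.

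B2M encodes beta-2-microglobulin, the light chain of folded class I molecules. It stood at 361.11 FPKM in the DDX5 shRNA library and at 405.5 FPKM in the non-targeting library, 1.12-fold lower, with a log2 ratio of -0.17. The gene was thus the highest of the 9 in both libraries and differed in the direction opposite to the heavy chains. None of its 50-base windows occurs in another gene's coding transcript.

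TAP1 and TAP2 encode the subunits of the peptide transporter. TAP1 stood at 8.78 FPKM in the DDX5 shRNA library and at 9.28 FPKM in the non-targeting library, a log2 ratio of -0.07 and the smallest difference of the 9. TAP2 stood at 11.86 FPKM in the DDX5 shRNA library and at 20.01 FPKM in the non-targeting library, 1.69-fold lower, with a log2 ratio of -0.71. Both partners were close in level in the DDX5 shRNA library, where TAP2 was 1.35 times TAP1, against 2.16 times TAP1 in the non-targeting library. In GENCODE v29, 36.3% of the exon bases of the longest TAP2 transcript are shared with the same-strand model AL669918.1, which could take part of its reads.

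TAPBP encodes tapasin, the chaperone that bridges heavy chain and transporter. It stood at 17.35 FPKM in the DDX5 shRNA library and at 20.33 FPKM in the non-targeting library, 1.17-fold lower, with a log2 ratio of -0.22. ERAP1, which trims peptides in the endoplasmic reticulum, stood at 7.48 FPKM in the DDX5 shRNA library and at 4.91 FPKM in the non-targeting library, 1.52-fold higher, with a log2 ratio of 0.52. Its neighbour CAST, on the opposite strand, was also higher, at 58.36 FPKM in the DDX5 shRNA library and 35.42 FPKM in the non-targeting library. Only 99 exon bases of the longest ERAP1 transcript, 1.80% of it, lie opposite CAST exons, and the part of CAST reads in the ERAP1 value was not tested.

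Ordered by FPKM in the DDX5 shRNA library, the genes ran B2M, HLA-E, TAPBP, TAP2, HLA-B, TAP1, ERAP1, HLA-F and HLA-C. In the non-targeting library the order was B2M, TAPBP, TAP2, HLA-E, TAP1, HLA-B, ERAP1, HLA-F and HLA-C. HLA-E stood above TAPBP and TAP2 in the DDX5 shRNA library and below them in the non-targeting library, and HLA-B stood above TAP1 in the DDX5 shRNA library only. With 1 library per condition, whether neighbours in this order differ beyond the spread of cultures is not known.

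All 9 genes lay within the range of ratios of the other genes. Of the 11413 genes that averaged 1 FPKM or more, 4.19% had a log2 ratio of 1 or more and 2.26% a log2 ratio of -1 or less. All of the 9 genes passed this filter, 1 of them (HLA-F) had a log2 ratio of 1 or more, and 0 had -1 or less. With both libraries scaled to the same total, 379 of all genes reached 1 or more and 379 reached -1 or less, in place of 478 and 258. A log2 ratio above 0 was found for 5 of the 9 genes, against 52% of all genes, and one below 0 for 4 of the 9, against 47.8%. The median log2 ratio was 0.40 over the 9 genes and 0.02 over all genes. That median is the value of HLA-E, the lowest of the 5 ratios above 0, and was -0.17 over the 5 genes that are not HLA genes.

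HLA-F ranked 381 from the highest ratio among the 11413 genes, and HLA-C 927, HLA-B 1266, ERAP1 1804 and HLA-E 2507. From the lowest ratio, TAP2 ranked 764, TAPBP 3362, B2M 3809 and TAP1 4733. As a share, 3.34% of all genes had a ratio as high as that of HLA-F and 6.69% one as low as that of TAP2. Genes of like level gave other shares. Of the 571 genes between 3.04 and 3.9 FPKM on average, 5.60% had a ratio as high as that of HLA-F, and of the 570 genes between 13.7 and 16.1 FPKM, 6.84% had a ratio as low as that of TAP2. The shares as high among genes of like level were 12.1% for HLA-C, 9.47% for HLA-B, 17.3% for HLA-E and 19.4% for ERAP1. The shares as low were 29.6% for TAPBP, 35.8% for B2M and 45.8% for TAP1.

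**Figure D3:**
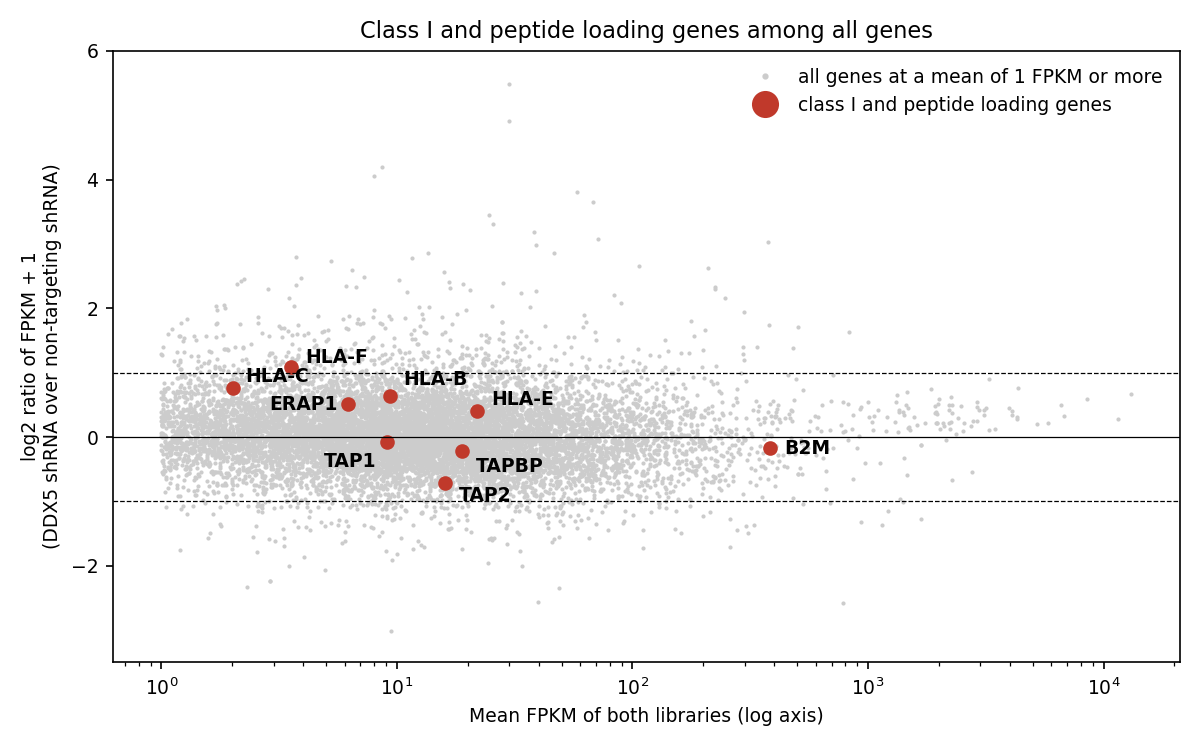
log2 ratio of FPKM + 1 against mean FPKM of both libraries (log axis) for 11413 genes in grey and the 9 class I and peptide loading genes in red; dashed lines mark 2-fold. HLA-F lies just above the upper line at 1.09, TAP2 is the lowest of the 9 at -0.71, and all lie inside the grey cloud.

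Other genes of peptide loading went both ways. Of 17 loading partners and chaperones, 8 had a log2 ratio above 0 and 9 below, none was 2-fold apart (1 at the same total), and the median was -0.04. CALR, the calreticulin gene of the peptide loading complex, stood at 630.06 FPKM in the DDX5 shRNA library and 714.17 FPKM in the non-targeting library. PDIA3, which encodes the disulfide partner of tapasin ERp57, stood at 192.97 FPKM in the DDX5 shRNA library and 210.12 FPKM in the non-targeting library. The sizes of both differences were close to that of B2M, with log2 ratios of -0.18 and -0.12. CANX, the chaperone of newly made heavy chains, stood at 389.21 FPKM in the DDX5 shRNA library and 384.28 FPKM in the non-targeting library. TAPBPL, the tapasin-related peptide editor TAPBPR, had a log2 ratio of 0.39, at 3.18 FPKM in the DDX5 shRNA library and 2.19 FPKM in the non-targeting library.

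ERAP2, the partner of ERAP1, differed the other way, at 3.42 FPKM in the DDX5 shRNA library and 6.18 FPKM in the non-targeting library, a log2 ratio of -0.70. ERAP1 was 2.19 times ERAP2 in the DDX5 shRNA library and 0.794 times ERAP2 in the non-targeting library, so the order of the 2 trimming enzymes was opposite between libraries. THOP1, a cytosolic peptidase that destroys some class I peptides, had the largest difference of this list, at 27.08 FPKM in the DDX5 shRNA library and 53.91 FPKM in the non-targeting library, a log2 ratio of -0.97. TPP2, another cytosolic peptidase, had a log2 ratio of -0.43. GANAB, a glucosidase that trims heavy chain glycans, and HM13, the signal peptide peptidase that frees the peptides bound by HLA-E, had log2 ratios of 0.37 and 0.46.

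Upstream of transport, proteasome genes were mostly lower in the DDX5 shRNA library. Of 14 constitutive 20S subunits, 10 had a log2 ratio below 0 and 4 above, against 47.8% of all genes below 0. Their median was -0.27 and none was 2-fold apart. PSMA3, PSMA4, PSMA2 and PSMB3 had the largest, from -0.72 to -0.51. Of 7 immunoproteasome and PA28 genes, 5 were below 0 and 2 above. Their median of -0.37 is the value of PSME3, and not all of the 7 belong to the interferon-inducible proteasome. The 3 catalytic genes of that immunoproteasome differed among themselves. PSMB9 stood at 4.06 FPKM in the DDX5 shRNA library and 7.88 FPKM in the non-targeting library, and PSMB10 at 8.86 FPKM in the DDX5 shRNA library and 12.74 FPKM in the non-targeting library. PSMB8 stood at 16.81 FPKM in the DDX5 shRNA library and 13.95 FPKM in the non-targeting library. Of the exon bases of the longest PSMB10 transcript, 45.3% are shared with the same-strand model AC040162.1. In PSMB8, 31.5% lie opposite exons of PSMB8-AS1, and in PSMB9, 17.6% are shared with PSMB8-AS1 on the same strand. The proteasome assembly factor gene POMP had a log2 ratio of -0.47, and the PA28 activator gene PSME3 -0.37. The other PA28 genes, PSME2 and PSME1, had log2 ratios of 0.32 and -0.06.

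TAP2, PSMB8, TAP1 and PSMB9 follow each other in this order in the MHC region, with no other RefSeq coding gene starting between them. Their log2 ratios were -0.71, 0.25, -0.07 and -0.81, so these neighbours did not share a direction. TAP1 and PSMB9 are divergent genes whose RefSeq promoter windows, at 250 bases before and 50 after each start, overlap by 13 bases for the first RefSeq start of TAP1 and by 0 for its second. PSMB9 was 1.94-fold lower in the DDX5 shRNA library and TAP1 1.06-fold lower. Of the exon bases of the longest PSMB9 transcript, 17.6% lie opposite exons of PSMB8, where the strand of reads matters.

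The known regulators of class I genes were mixed, with 7 of 18 above 0 and 11 below, against 47.8% of all genes below 0. Their median was -0.08. NLRC5, the class I transactivator, stood at 1.52 FPKM in the DDX5 shRNA library and 2.52 FPKM in the non-targeting library, a log2 ratio of -0.48. Its RFX partners differed the other way or hardly: RFXANK stood at 188.13 FPKM in the DDX5 shRNA library and 87.84 FPKM in the non-targeting library, the list's only gene past 2-fold (0 at the same total). RFX5 stood at 47.75 FPKM in the DDX5 shRNA library and 27.9 FPKM in the non-targeting library, and RFXAP had a log2 ratio of -0.03. Of the RFXANK exon bases, 23.1% lie opposite exons of BORCS8, which stood at 18.96 FPKM in the DDX5 shRNA library and 14.55 FPKM in the non-targeting library. A further 15.7% lie opposite NR2C2AP, at 20.15 FPKM in the DDX5 shRNA library and 21.98 FPKM in the non-targeting library. Of the RFX5 exon bases, 10.0% lie opposite exons of AL391069.1.

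IRF1, an interferon-induced activator of class I and TAP1 promoters, stood at 3.67 FPKM in the DDX5 shRNA library and 3.08 FPKM in the non-targeting library. IRF2, which binds the same motif, had a log2 ratio of -0.15. The NF-kappa B genes RELA and NFKB1 had log2 ratios of -0.02 and -0.12. EZH2, a histone methyltransferase that can silence class I genes, stood at 37.86 FPKM in the DDX5 shRNA library and 51.85 FPKM in the non-targeting library, a log2 ratio of -0.44.

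Interferon-stimulated genes were mostly low, and more of them stood below 0 than above. Of the 43 genes of this list, 41 were measured, and over all of these 25 had a log2 ratio below 0 and 14 above, with a median of -0.12. Among the 21 past the filter, 18 were below 0, against 47.8% of all genes, and 3 above, with a median of -0.31 and none 2-fold apart. Of those 18, CMPK2, IFIT3, IFI44 and PARP9 averaged 1 FPKM or more only through the non-targeting library, so their direction was set in part by the filter (named after their values were seen). With a pseudocount of 0.1, 2 genes of this list were at least 2-fold lower. TRIM21, an antibody receptor of the cytosol, and EIF2AK2, the kinase PKR, had log2 ratios of -0.62 and -0.54. IFITM3, an antiviral membrane protein gene, stood at 328.91 FPKM in the DDX5 shRNA library and 422.27 FPKM in the non-targeting library. ISG15, a ubiquitin-like modifier, stood at 5.65 FPKM in the DDX5 shRNA library and 7.3 FPKM in the non-targeting library. IFI35 had the highest ratio of the list at 0.60. Among 11 receptors and signalling genes past the filter, 6 were above 0 and 5 below. IRF9, a DNA-binding factor of the type I interferon response, stood at 9.06 FPKM in the DDX5 shRNA library and 4.33 FPKM in the non-targeting library. All of its exon bases also belong to the same-strand model AL136295.5. IFNGR1, an interferon gamma receptor chain, stood at 34.64 FPKM in the DDX5 shRNA library and 18.32 FPKM in the non-targeting library. The type I interferon receptor chains differed in opposite directions, with log2 ratios of 0.55 for IFNAR1 and -0.69 for IFNAR2.

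**Figure D4:**
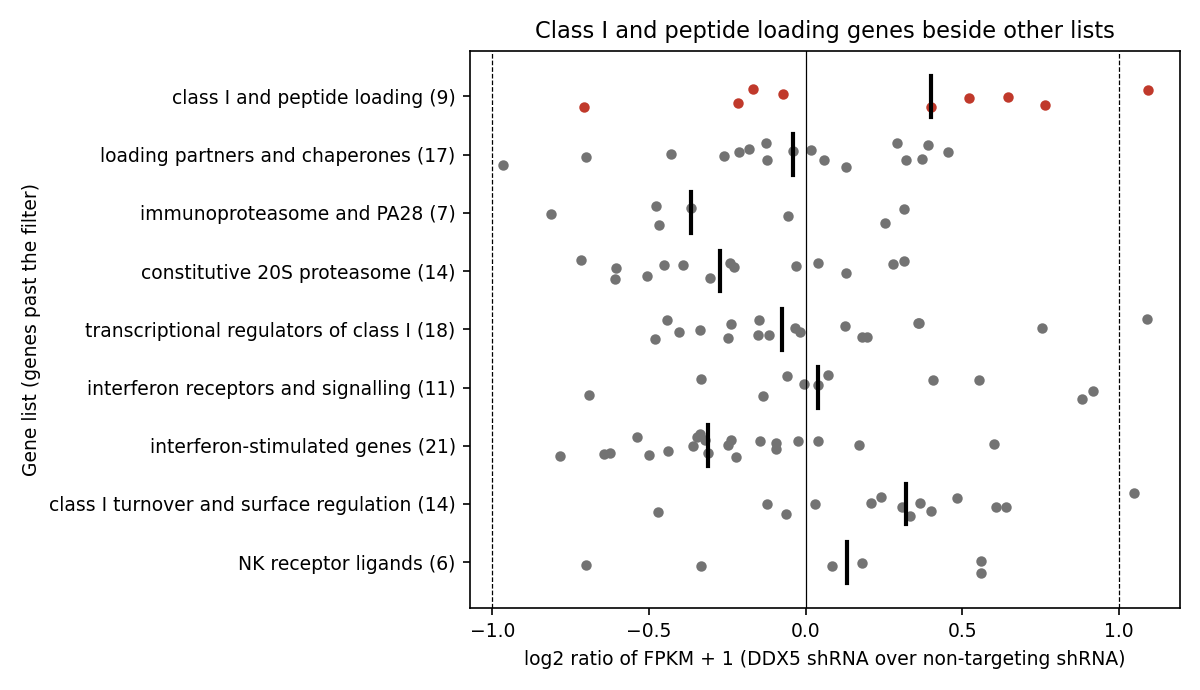
log2 ratios of FPKM + 1 for the genes of 9 lists, 1 point per gene that averaged 1 FPKM or more, with the number of genes in brackets and a black bar at each list's median; dashed lines mark 2-fold. Of the 9 class I and peptide loading genes, 5 lie above 0 and 4 below, near the shares of all genes (52% and 47.8%). Of the 21 interferon-stimulated genes shown, 18 lie below 0, but CMPK2, IFIT3, IFI44 and PARP9 among them passed the filter only through the non-targeting library. Over all 41 measured, 25 were below 0 and 14 above.

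Genes of a list drawn up for class I turnover and surface regulation were mostly higher, with 11 of 14 above 0 and 3 below. The link of each listed gene to class I was not examined. Of all genes, 52% were above 0. The median of the list was 0.32. MARCHF9, an ubiquitin ligase known to remove class I from the surface, was the only gene of this list past 2-fold (0 genes at the same total or with a pseudocount of 5), at 3.57 FPKM in the DDX5 shRNA library and 1.21 FPKM in the non-targeting library (named after its values were seen). SPPL2A, an intramembrane protease, and SYVN1, an ubiquitin ligase of the endoplasmic reticulum, had log2 ratios of 0.61 and 0.48, and TMEM129, also an ubiquitin ligase there, 0.40. TRAF2, a signalling ubiquitin ligase, differed the other way at -0.47. Among class I-like genes, 2 of 7 passed the filter. MR1, which presents vitamin B metabolites to MAIT cells, stood at 6.8 FPKM in the DDX5 shRNA library and 2.59 FPKM in the non-targeting library, a log2 ratio of 1.12, and PROCR, the protein C receptor, had -0.60. The nonclassical gene HLA-G was listed at 0 in the DDX5 shRNA library and at 0.05 FPKM in the non-targeting library. Of 12 NK receptor ligands and checkpoint genes, 6 passed the filter, with PVR, a ligand of DNAM-1 and TIGIT, at 0.56 and MICB, a ligand of NKG2D, at -0.33. Of 12 class II genes 5 were measured, and 2 of these passed the filter. HLA-DMA, a class II peptide editor, was the highest HLA gene of that list, at 2.57 FPKM in the DDX5 shRNA library and 1.37 FPKM in the non-targeting library.

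The direction of each of the 9 genes held under the 3 scalings tried and the correction for length and GC content. All 3 scalings lowered the ratios of these genes, so they could not change the direction of those below 0. The size of the weakly expressed HLA-C and HLA-F depended on the pseudocount. HLA-F had log2 ratios from 0.56 to 1.40 and HLA-C from 0.32 to 1.12 over 8 alternatives each. Subtracting the median of genes with similar transcript length and GC content gave 0.98 for HLA-F, 0.72 for HLA-C, 0.60 for HLA-B, 0.33 for HLA-E and -0.74 for TAP2. After this correction HLA-F no longer passed 2-fold.

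**Figure D5:**
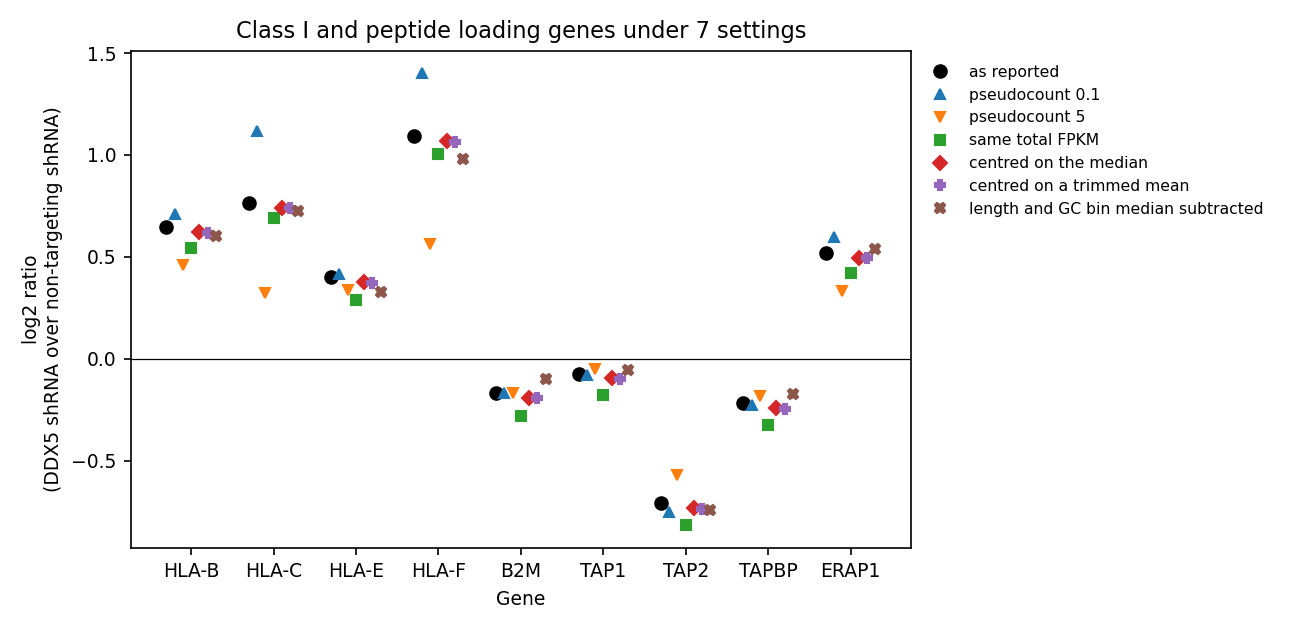
log2 ratio of each of the 9 genes as reported and under 6 other settings of pseudocount, scaling and correction for length and GC content. Each gene stays on its own side of 0, which a pseudocount cannot change. The scalings lowered all 9 ratios, so they could not change the side of genes below 0. HLA-C and HLA-F spread most, and the same-total scaling gives the lowest value for TAP2 at -0.82.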

How the data were processed

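RNA of 1 sample per condition was made into libraries with Illumina protocols, per the labels' protocols. FPKM values per gene were deposited by the authors in 1 table, with 1 column per library and 2 decimals, per the file headers. HISAT, Bowtie2, RSEM 1.2.8 and hg19 appear, without roles, in the submitters' processing notes. The sources used here give no annotation, strand setting or filter. RSEM divides shared reads by estimation, so related HLA genes can exchange values, and the alleles of HGC-27 were not examined. Some genes related to those described are not reported here.

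Columns were assigned by sample title and Entrez numbers were named with RefSeq (GRCh38.p14), which matched 15289 of 16021 rows. Because that build differs from hg19, coordinates are given only for RefSeq promoter sequences. Log2 ratios used FPKM + 1, and counts and medians used the 11413 genes that averaged 1 FPKM or more. With 2 libraries no test was run, and no gene was named for likeness of pattern. The 9 genes and all lists were chosen with earlier results of these data known. From each list, up to 4 genes with the largest absolute ratio and up to 2 nearest the median could be named. The minimum for this was a mean of 5 FPKM, and fixed regulators and partners were named besides. CAST, BORCS8 and NR2C2AP are named as overlapping genes. PA28, NK, class II and marker genes are named in part after their values were seen.

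Depth is not stated; it was estimated from whole-fragment steps of short genes with 1 transcript. At the best step 74.3% of 136 values in the DDX5 shRNA library and 77.0% of 135 in the non-targeting library lay within 0.15 of a whole number, against a median of 25.0% and 24.6% over all steps tried. Transcript length, GC content and shared windows came from the longest coding GENCODE v29 transcript. The alternatives changed the pseudocount to 0.1 or 5, dropped the filter or raised it to a mean of 5 FPKM, scaled both libraries to the same total, centred the ratios on their median or on their 30% trimmed mean, or summed the HLA genes. Correction for length and GC content, and leaving out all HLA genes or HLA-C and HLA-F, were added after the data were seen. The computation was tested on simulated data with known folds. These were larger than the folds of the class I and peptide loading genes and were planted in well expressed genes only. Small folds and weakly expressed genes were therefore not covered. Python 3.11.15, numpy 2.4.6, pandas 2.3.3 and matplotlib 3.10.9 were used.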

Additional observations from a re-analysis of the deposited data

How the results depend on the processing

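The log2 ratio of each of the 9 genes kept its sign under the 3 scalings and the correction for length and GC content. All 3 scalings lowered the ratios of these genes, so they could not change the sign of the 4 below 0. The pseudocounts and filters cannot change the sign of a single gene, and the HLA sum is not a value of its own for each gene. The number of these genes at least 2-fold higher was 1 as reported, 2 with a pseudocount of 0.1, and 0 with a pseudocount of 5, with a minimum mean of 5 FPKM, and after correction for length and GC content. The pseudocount sets how far low values count, and HLA-C and HLA-F are under 5 FPKM on average. With that minimum, 3 genes were above 0 and the median of the genes left was -0.072. It was also -0.072 without HLA-C and HLA-F, and -0.17 without the 4 HLA genes, against 0.40 as reported. HLA-F came nearest to 0 with a pseudocount of 5, at 0.56, and the 4 HLA genes summed gave 0.61. Across all genes, 743 passed 2-fold upward and 390 downward with a pseudocount of 0.1, and 194 upward and 102 downward with a pseudocount of 5. The same-total scaling moved the median of all genes to -0.08. The interferon-stimulated list had 14 genes above 0 with no filter, in place of 3, and 2 at least 2-fold lower with a pseudocount of 0.1, in place of 0. Medians of the other lists kept their sign except those of the interferon receptor list, lowest at -0.07, and of the mesenchymal markers. No paired analysis was possible because each condition has 1 library. Values of HLA-C rest on about 57 fragments in the DDX5 shRNA library and 25 in the non-targeting library, and the spread between cultures was not measured.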
